A study of Mus musculus with 17 samples.

Results

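The comparison described here sets 7 libraries of mouse bone marrow-derived macrophages treated with transforming growth factor beta 1 (TGF-β1) against the 5 control libraries that expressed cell cycle genes most strongly. It used 12 of the 17 libraries of the study. The 5 controls were the highest of 10 by the mean of log2(TPM + 1) over Mki67, Top2a, Ccna2, Ccnb1, Cdk1, Birc5, Pcna, Mcm5, Rrm2 and Tyms, 10 genes of DNA replication and mitosis. They were chosen by these measured levels. TPM is a length-corrected measure of the share a gene has of the transcripts in a library. The question was which differences between treated and control macrophages remain when proliferation is more alike.

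All mice were C57BL/6J by their labels, either wild type (WT) or Smad3 knockout (KO), and bone marrow cells were grown with M-CSF at 50 ng/ml for 7 days. The treated libraries, 4 WT and 3 labelled KO, had TGF-β1 at 5 ng/ml for 5 days. The chosen controls were WT control libraries 2, 4 and 5 and KO control libraries 1 and 3. Control values below follow that order, and libraries are written as control WT2 or TGF-β1 KO1. Every label carries 1 treatment text, controls included, so groups came from titles, and no source used here tells whether controls stayed 5 days longer in culture. The design text mentions sorting F4/80-positive cells by smooth muscle actin, but no label ties a library to a sort. Whether a library came from a single cell or a pool is not clear from the labels, which name no animal or culture, so the p-values speak for the variation among these 12 libraries, possibly technical, and not among animals.

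TGF-β1 binds a pair of receptor kinases that phosphorylate Smad2 and Smad3, which enter the nucleus with Smad4 and change transcription. In many epithelial and blood cell types the pathway is known for slowing the cell cycle, and in tissue macrophages, microglia among them, for maintaining a resident-type gene program. Macrophages in culture divide in response to M-CSF, whose receptor is Csf1r, and replication genes peak in S phase while mitotic genes peak in G2 and M phase.

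The choice used measured values, so the cell cycle genes stayed in the fits over all genes, but their levels are described here without tests. The mean over the 10 genes was 7.40 in control WT2, 6.65 in WT4, 7.75 in WT5, 7.56 in KO1 and 6.43 in KO3. Control KO4, at 6.09, was the nearest library left out, and the other 4 ranged from 3.96 to 5.75. In the treated libraries the mean ran from 7.58 through a median of 7.94 to 8.73. The treated libraries thus remained the more strongly cycling set by these genes, with 6 of 7 above the highest chosen control. The average gap fell from 3.04 log2 units against the 5 controls left out to 0.97 against those chosen.

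**Figure D1:**
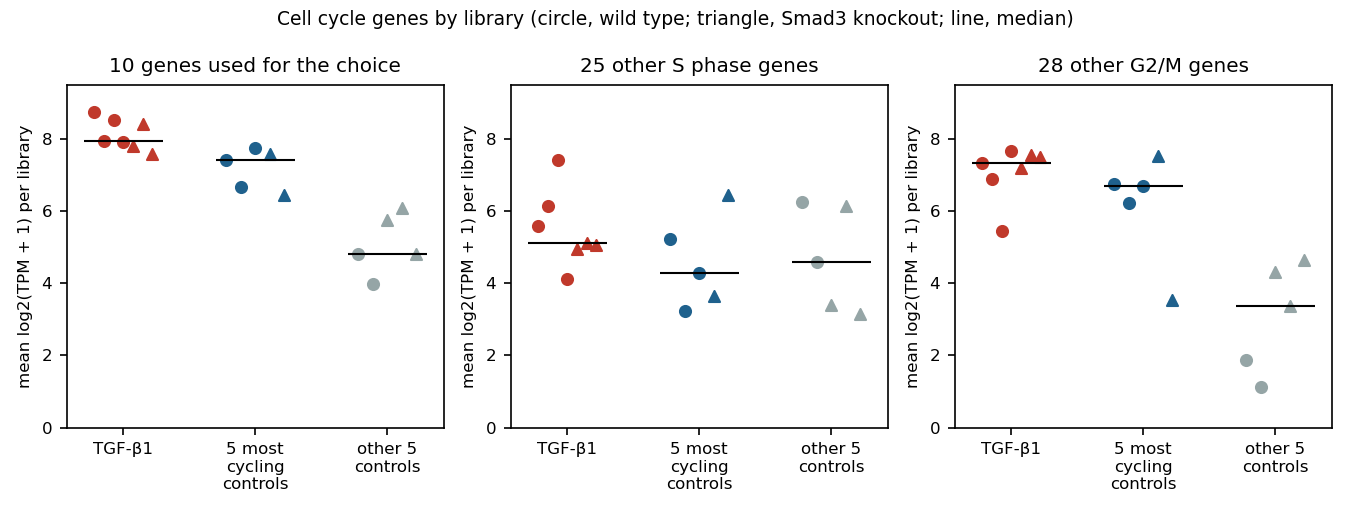
Mean log2(TPM + 1) per library over the 10 genes used for the choice, 25 other S phase genes and 28 other G2/M genes, with 1 point per library and a line at each median. The G2/M medians were 7.32 in treated, 6.68 in chosen and 3.38 in other controls, while the S phase medians were 5.11, 4.27 and 4.60.

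The choice brought mitotic genes closer, while S phase genes moved both ways. Over 28 further G2/M genes the median log2 difference, TGF-β1 minus control, was 0.87 against the chosen controls and 4.15 against the other 5. Over 25 further S phase genes it was 0.96 and 0.97. All 28 G2/M genes had a difference nearer 0 against the chosen controls than against the others, as did 12 of the 25 S phase genes, the other 13 being farther from 0. Of the S phase genes, in examples chosen after their values were seen, Dut, which removes dUTP, was at 0.14 against the chosen and 1.95 against the other controls, and Uhrf1, which maintains DNA methylation, at 2.52 and 0.87. Cdk1, the kinase that drives entry into mitosis, had 439 to 1341 TPM (median 777) in treated libraries, 245 to 855 (median 460.2) in the chosen controls and 16.3 to 256 (median 95.4) in the others. Pcna, the sliding clamp of DNA replication, had medians of 479.5, 772 and 463 TPM in the same order, so its chosen controls included levels above most treated libraries. Control KO3 was uneven: it had the highest S phase mean of the chosen controls (6.43) and their lowest G2/M mean (3.55). The 53 further genes, used in place of the 10, picked the same 5 controls. The 25 S phase genes alone would have ranked the controls otherwise. By their mean, WT1 (6.26) and KO4 (6.14), both left out, stood above the chosen WT2 (5.22), WT5 (4.27), KO1 (3.65) and WT4 (3.22).

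Depth cannot be recovered from TPM and is unknown. Genes at TPM 1 or more numbered 8218 to 10307 in treated and 7269 to 9723 in chosen control libraries. Among 25 genes that every cell uses, 0 were listed at 0 in any library. Less abundant genes often were. Of genes with a mean of 10 to 50 TPM in a library's group, 4.53% to 14.8% were at 0 in that library. A single value of 0 is therefore weak evidence of absence. Correlations of log2(TPM + 1) between libraries had a median of 0.69 within sets and 0.67 between treated and chosen control libraries. Most macrophage markers were present: Cd68, Csf1r, Lyz2, Adgre1 and Itgam were each at TPM 1 or more in all 12 libraries. Fcgr1 was so in 11 and Mertk in 5. Defining fibroblast markers were close to absent, with 6 of 10 at 0 in all 12 libraries and a summed level of 0 to 9.72 TPM in treated and 0 to 0.080 in chosen controls. Mast cell (7 of 8), lymphocyte (9 of 12) and neutrophil markers (10 of 13) were also mostly at 0 throughout, and S100a8 reached 132 TPM in control WT4. The neutrophil marker Cxcr2 was at TPM 1 or more in 11 libraries, with a maximum of 7.74. Of 9 dendritic cell markers 3 were at 0 throughout. Their sum was 0.12 to 19.1 TPM in treated and 0.13 to 19.3 in chosen control libraries. Summed endothelial markers, mostly Vwf and Kdr, were 1.51 to 48.1 TPM in treated and 21.1 to 35.4 in chosen control libraries. If a library holds many cells, fewer cells of a type and less RNA per cell cannot be told apart.

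The transcript of Smad3 did not follow the genotype labels. It was listed at 0 in all 4 TGF-β1 WT libraries and at 6.18, 0.010 and 22.3 TPM in TGF-β1 KO1 to KO3. Among chosen controls it was at 0.010, 15.4 and 11.5 TPM in WT2, WT4 and WT5, and at 0 and 1.93 in KO1 and KO3. Its log2 difference was -0.79 (limma adjusted p = 0.880) and turned positive in 4 of the other fits. The removed part of the gene is not stated in the labels, so this is no check of the deletion, and genotype is used below only as a label. A test of whether the treatment effect differed between genotypes called 0 of 11435 genes (0%), with 484 at an unadjusted p under 0.05 and a smallest limma adjusted p of 0.194. Without TGF-β1 WT3 it called 1 gene, Ctsd.

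Against the 5 chosen controls, 14 of 11435 genes tested passed at a Benjamini-Hochberg adjusted p under 0.05 in limma on log2(TPM + 1), 0.122% of all. Of these, 10 were higher with TGF-β1 (0.0875%) and 4 lower (0.035%), and 1017 genes (8.89%) had an unadjusted p under 0.05. None of the 14 was in the cell cycle lists. These lists hold 63 of the 11435 genes tested, and the controls were chosen by some of them, so this absence says little. The same treated libraries against the 5 controls left out gave 161 calls of 11436 (1.41%), and against all 10 controls 50 of 12158 (0.411%). Of the 161, 131 were outside the cell cycle lists, on which the controls were divided. These comparisons share the 7 treated libraries. With all 17 libraries and the cycle mean as a covariate, 2 genes passed of 12158 (0.0165%), Ch25h among them. The median log2 difference of all genes tested was 0.05 against the chosen controls.

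**Figure D2:**
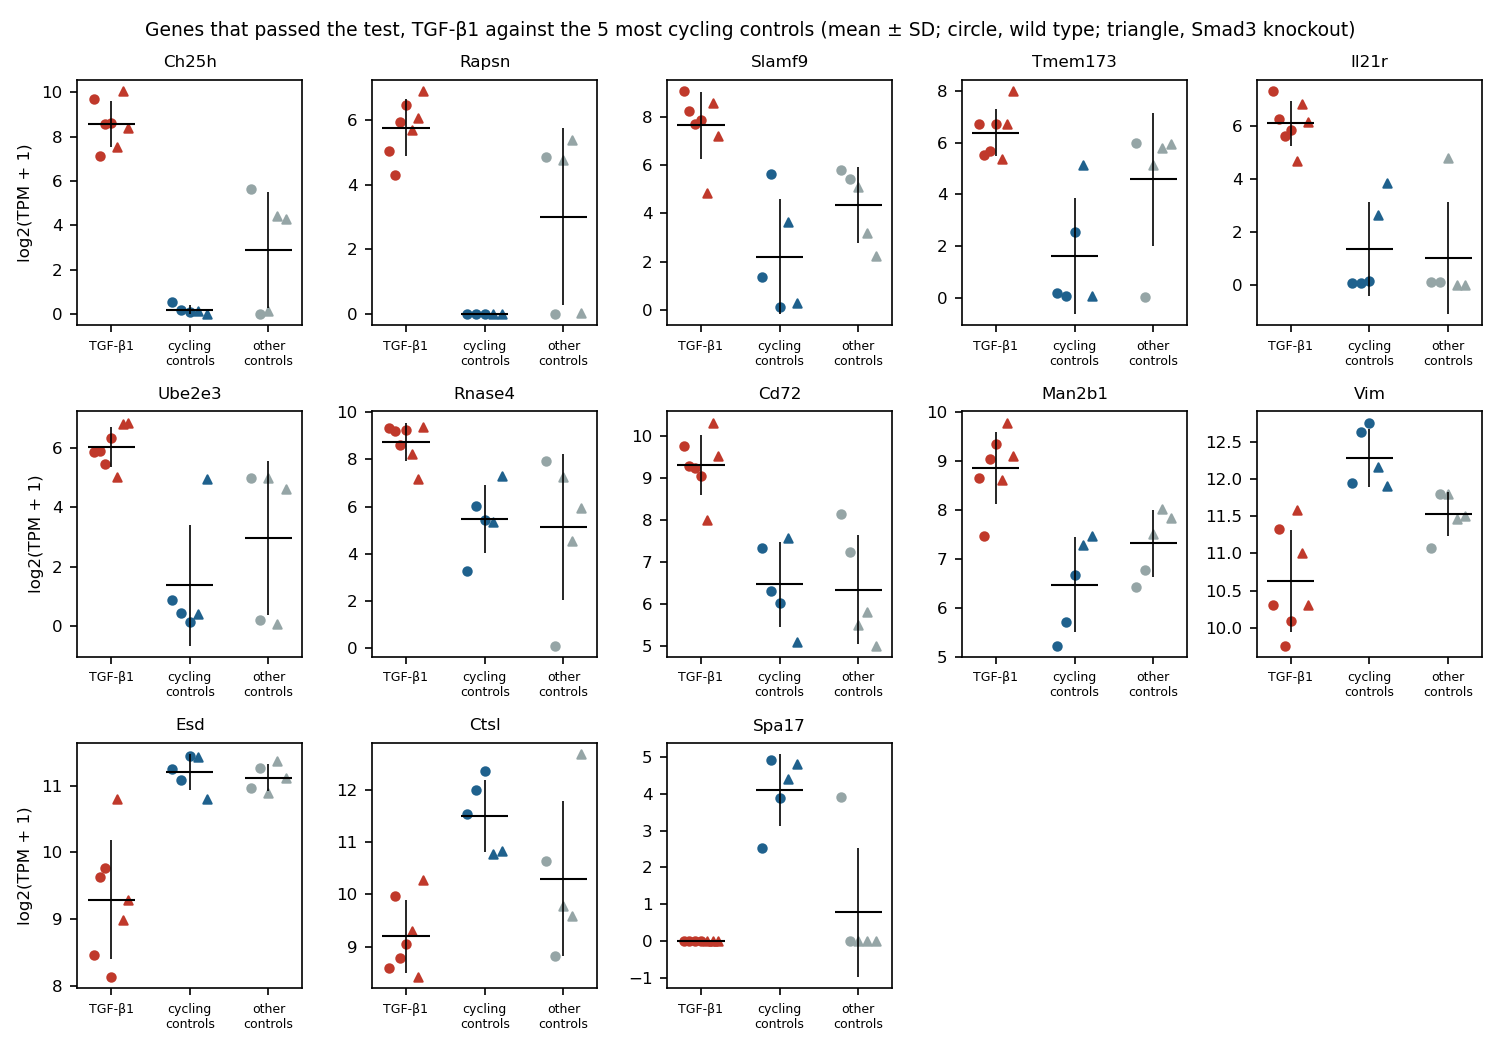
Level in log2(TPM + 1) of 13 of the 14 genes that passed against the chosen controls, with 1 point per library and bars for mean ± SD in the 7 treated, 5 chosen and 5 other control libraries. Ch25h stood at 0 to 0.45 TPM in the chosen controls and 141 to 1062 with TGF-β1, while Ctsl and Vim were lower with TGF-β1.

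Ch25h (ENSMUSG00000050370), which makes the oxysterol 25-hydroxycholesterol, had the largest difference of any called gene. It was at 0.45, 0.12, 0.070, 0.11 and 0 TPM in the chosen controls. In treated libraries the lowest value was 141 TPM, the median 384 and the highest 1062, so the sets were far apart. The log2 difference was 8.38 ± 0.57 (SE; limma adjusted p = 3.58e-07) on the TPM + 1 scale, and 5.27 with a pseudocount of 10. The 5 controls left out ranged from 0 to 48.1 TPM with a median of 18.5, so against them the difference was 5.68 (adjusted p = 0.00292). Of the 14 genes that passed, Ch25h alone did so under all 21 other settings and whichever of the 12 libraries was left out. These settings share treated libraries, and the setting with controls chosen by further cycle genes was the same fit. Ch25h met the filter through the treated libraries alone, so the filter largely fixed its direction.

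Promoters are shown for 3 genes that passed and for Cdk1, used for the choice of controls, so that their sequence can be read beside the values. Each window is the 250 bases before the RefSeq start on GRCm38.p6, minus strand, written 5′ to 3′; this build is not that of the deposited values. The windows are chr19:34475149-34475398 for Ch25h, chr4:43454627-43454876 for Cd72, chr13:64370521-64370770 for Ctsl and chr10:69352913-69353162 for Cdk1. Capitals mark, on either strand, CAGAC (the box bound by Smad3 and Smad4), CCAAT (bound by NF-Y) and TTTGAA (a cell cycle homology region of mitotic promoters).
Ch25h: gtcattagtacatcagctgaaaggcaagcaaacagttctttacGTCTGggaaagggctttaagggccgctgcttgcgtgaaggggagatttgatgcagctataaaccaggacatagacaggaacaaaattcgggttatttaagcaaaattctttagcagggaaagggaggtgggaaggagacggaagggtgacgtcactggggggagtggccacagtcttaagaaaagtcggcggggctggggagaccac
Cd72: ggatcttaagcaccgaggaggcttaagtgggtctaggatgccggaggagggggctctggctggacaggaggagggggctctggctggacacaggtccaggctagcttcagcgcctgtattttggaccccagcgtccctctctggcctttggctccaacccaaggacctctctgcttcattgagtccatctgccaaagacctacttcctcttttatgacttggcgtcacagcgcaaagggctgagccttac
Ctsl: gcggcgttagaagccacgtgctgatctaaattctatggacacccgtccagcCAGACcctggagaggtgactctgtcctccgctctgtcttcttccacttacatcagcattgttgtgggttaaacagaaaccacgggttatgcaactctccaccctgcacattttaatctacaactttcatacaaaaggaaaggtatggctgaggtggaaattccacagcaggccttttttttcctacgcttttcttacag
Cdk1: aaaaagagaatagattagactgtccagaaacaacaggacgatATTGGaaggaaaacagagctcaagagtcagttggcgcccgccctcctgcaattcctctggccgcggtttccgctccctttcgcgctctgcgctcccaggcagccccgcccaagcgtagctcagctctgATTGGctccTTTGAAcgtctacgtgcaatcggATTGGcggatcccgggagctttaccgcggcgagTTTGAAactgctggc

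Ch25h and Ctsl, which differed in opposite directions, each held 1 CAGAC box, Cd72 held none of the 3 motifs, and Cdk1 held 3 CCAAT boxes and 2 TTTGAA motifs. CAGAC was found in 6 of the 10 called genes with a table entry, in 2 of the 9 cycle genes with one and in 42.2% of 32851 windows. CCAAT was found in 3 of 10, 7 of 9 and 33.8%, and TTTGAA in 0 of 10, 3 of 9 and 16%. A match describes letters only, and the motifs did not overlap one another.

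Genes of lysosomal enzymes moved in both directions. Man2b1, lysosomal alpha-mannosidase, was at 36.4, 51.5, 101, 154.5 and 176.2 TPM in the chosen controls and at 176.3, 530.0 and 884 (lowest, median, highest) with TGF-β1. Its sets met at the edge, where the lowest treated library barely exceeded control KO3 (log2 2.39 ± 0.43, limma adjusted p = 0.0317).

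Ctsl, the lysosomal protease cathepsin L, went the other way. Its controls held 2990, 4096, 5241, 1759 and 1834 TPM, and treated libraries 341, 526 and 1237, with no overlap (-2.31 ± 0.34, limma adjusted p = 0.00868). The controls left out spanned 449 to 6594 TPM and overlapped the treated libraries, and against them the difference was -1.11 (adjusted p = 0.422). Ctsd, cathepsin D, did not pass: chosen controls held 4365 to 9269.9 TPM, TGF-β1 WT libraries 16485 to 32752 and TGF-β1 KO libraries 5591 to 9714. Its difference was 1.40 ± 0.41 (limma adjusted p = 0.277), and the WT and KO treated libraries did not overlap each other. The test of a genotype difference in that effect missed for Ctsd with all 12 libraries (log2 2.49, limma adjusted p = 0.194) and passed without TGF-β1 WT3 (0.0281). Of 28 lysosomal genes listed, 27 were tested, 18 had a positive and 9 a negative difference, and the median was 0.29.

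Of the surface receptors, Cd72, an inhibitory lectin of B cells and macrophages, was at 161, 79.1, 64.0, 189 and 33.6 TPM in chosen controls and at 255, 619.8 and 1264 with TGF-β1. The sets did not overlap (2.83 ± 0.43, limma adjusted p = 0.00907), and the difference was close to that against the controls left out (2.96, adjusted p = 0.00431). Among those left out, WT1, at 280 TPM, was above the lowest treated library. With the cycle mean as a covariate Cd72 did not pass (limma adjusted p = 0.154). Il21r, the interleukin 21 receptor, was at 0.040, 0.050, 0.11, 5.11 and 13.2 TPM and then 24.1, 69.5 and 157 (4.75 ± 0.82, adjusted p = 0.0236, or 2.60 with a pseudocount of 10). All chosen controls lay below all treated libraries, while among the controls left out KO2, at 26.2 TPM, was above the lowest treated library and the other 4 were at 0.080 or less. Slamf9, a receptor of the signalling lymphocyte activation family, was at 1.56, 49.1, 0.080, 11.4 and 0.23 TPM and then 28.1, 231 and 535, with control WT4 inside the treated range (5.44 ± 0.91, adjusted p = 0.0229).

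Rapsn, which encodes the acetylcholine receptor anchor rapsyn, was listed at 0 in all 5 chosen controls and at 18.7, 60.6 and 117 TPM (lowest, median, highest) with TGF-β1 (limma adjusted p = 0.00218). Rapsn thus met the filter through the treated libraries alone, and its own spread in the test came from them. The controls left out ranged from 0 to 40.6 TPM with a median of 26.1, and against them it did not pass (adjusted p = 0.219). Tmem173, the STING adaptor that senses cyclic dinucleotides, showed a similar layout. It was at 0.13, 0.060, 4.86, 34.4 and 0.060 TPM in chosen controls and 40.5, 104 and 253 in treated libraries (4.78 ± 0.88, adjusted p = 0.0361), while the controls left out had a median of 54.2 TPM (1.81, adjusted p = 0.458). Against all 10 controls Rapsn passed (adjusted p = 0.0465) and Tmem173 did not (0.154).

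Ube2e3, a ubiquitin-conjugating enzyme, was at 0.86, 0.35, 0.10, 0.33 and 30.2 TPM in chosen controls and 31.4, 58.8 and 115 with TGF-β1 (4.67 ± 0.85, adjusted p = 0.0317). Of the chosen controls KO3 alone came near the treated libraries, but so did WT1 (30.9), KO2 (30.9) and KO5 (23.3) among those left out. The gene did not pass against the 5 left out (adjusted p = 0.126) or all 10 controls (0.0564). Rnase4, a secreted ribonuclease whose locus shares promoters and leading exons with Ang, so that its values are uncertain, was at 8.61, 63.4, 42.7, 39.4 and 155 TPM and then 143, 596 and 665 (3.27 ± 0.55, adjusted p = 0.0229). Its sets overlapped at control KO3. Rnase4 and Slamf9 fall outside the naming rule, which asks for no overlap, and were named after their values were seen.

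The other lower genes were Vim, Esd and Spa17. Vim, the intermediate filament vimentin, was at 3929, 6343, 6909.6, 4589 and 3842 TPM in chosen controls and 867, 1269 and 3079.7 in treated libraries (-1.65 ± 0.29, limma adjusted p = 0.0236). The sets did not overlap, and against the controls left out the difference was -0.90 (adjusted p = 0.159). Esd, S-formylglutathione hydrolase, was at 2429, 2172, 2795, 2759 and 1781 TPM and then 279, 621 and 1778, the last in TGF-β1 KO1 and just under control KO3 (-1.91 ± 0.35, adjusted p = 0.0317). Spa17, sperm autoantigenic protein 17, was at 4.79, 29.0, 13.6, 20.1 and 26.8 TPM and listed at 0 in all 7 treated libraries (adjusted p = 0.0198). It was also listed at 0 in 4 of the 5 controls left out and at 14.1 in control WT1, and did not pass against all 10 controls (adjusted p = 0.215). Spa17 met the filter through the chosen controls alone, and its own spread in the test came from them. With no filter on low values it missed (limma adjusted p = 0.0577).

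Leaving out 1 library at a time gave 5 to 28 calls. Ch25h, Rapsn, Cd72 and Ctsl passed in each of these 12 fits, Rnase4 in 8, Spa17 and Vim in 7, Slamf9 and Il21r in 6, Man2b1 in 4, Esd and Tmem173 in 3 and Ube2e3 in 2, and where a call was lost the adjusted p lay between 0.0520 and 0.117. TGF-β1 KO1 stood apart: it was the treated library nearest to the controls for 8 of the 14 called genes and for 32 of the 79 genes whose sets did not overlap. Without it 28 genes passed, the 14 among them. Counts fell to 5 without TGF-β1 WT1, 6 without WT4 or KO3, 7 without WT2 or KO2 and 9 without control WT2, and rose to 23 without control KO1. Among all genes tested 53 did not overlap on the higher side (0.463%) and 26 on the lower (0.227%). When the libraries with fewest genes, control WT4 (7269) and TGF-β1 WT3 (8218), were both left out, 4 genes passed, among them Ch25h, Rapsn and Slamf9. With the number of genes detected as a covariate 20 genes passed, again with the 14 among them.

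**Figure D3:**
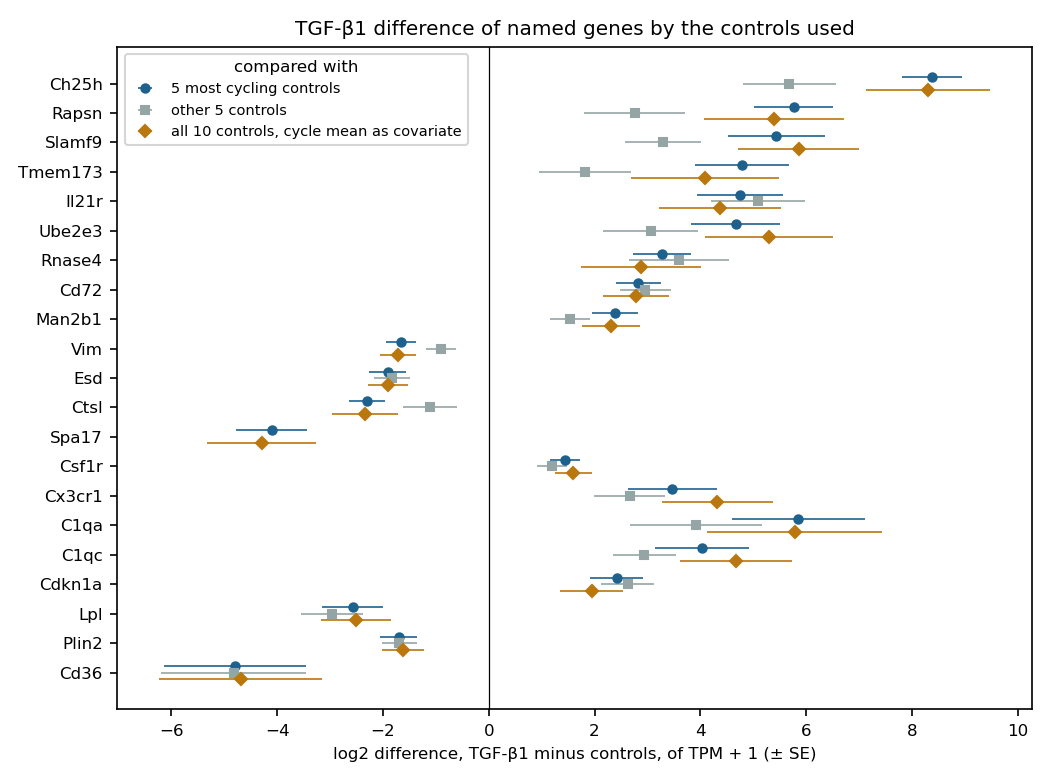
Log2 difference, TGF-β1 minus controls, ± SE for 13 of the 14 called genes and 8 others, against the 5 most cycling controls, against the other 5 and over all 17 libraries with the cycle mean as a covariate. Ch25h was at 8.38, 5.68 and 8.31, Cd72 at 2.83, 2.96 and 2.79, and Spa17 was not tested against the other 5. Cd72 did not pass with the covariate.

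Several genes came close without passing. Csf1r, the M-CSF receptor, was at 270.3, 177, 262, 536 and 363 TPM in chosen controls and 563, 940.5 and 1197 with TGF-β1. The sets did not overlap (1.45 ± 0.28, limma adjusted p = 0.0566), and the gene passed without TGF-β1 KO1 (0.0341) or control KO1 (0.0205). Tuba1b, an alpha tubulin, held 1125 to 2543 TPM in controls and 2639 to 4989 in treated libraries (1.03 ± 0.20, adjusted p = 0.0598, or 0.0431 and 0.0254 without the same libraries). Ccnd1, cyclin D1 of the G1 phase, was outside the cell cycle lists used here and held 6.47 to 213 TPM in controls and 239 to 861 with TGF-β1 (2.87 ± 0.59, adjusted p = 0.0777, or 0.0205 without control KO1). Rasal3, a Ras GTPase-activating protein of leukocytes, differed by 3.80 (adjusted p = 0.0904, or 0.0421 without control KO1 and 0.0497 without control WT4).

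On the lower side, Plin2, a coat protein of lipid droplets, was at 928, 1634, 850.5, 1249.7 and 624 TPM in chosen controls and 146, 272 and 589 with TGF-β1. Every treated library was lower (-1.70 ± 0.35, limma adjusted p = 0.0776, or 0.0431 without TGF-β1 KO1). Lpl, lipoprotein lipase, had 775 to 2237 TPM in controls and 66.7, 159.7 and 1558 with TGF-β1, the last in KO1 (-2.57 ± 0.57, adjusted p = 0.114, or 0.00360 without TGF-β1 KO1). Cd36, a fatty acid and lipoprotein receptor, was at 93.0, 87.6, 1161, 396 and 97.8 TPM in chosen controls, at 0.060 to 0.36 in the TGF-β1 WT libraries and at 283, 38.8 and 52.0 in TGF-β1 KO1 to KO3 (-4.81 ± 1.34, adjusted p = 0.238). Its treated WT libraries lay far below every control. TGF-β1 KO2 and KO3 lay below every chosen control by less, and KO1 lay within their range. The test of a genotype difference in that effect did not pass for Cd36 (limma adjusted p = 0.991).

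Of the 18 lipid-handling genes listed, 16 were tested, 3 positive and 13 negative, with a median of -0.75 and none past the test. Prkcz, an atypical protein kinase C, was listed at 0 in all treated libraries and at 1.29 to 31.6 TPM in chosen controls (adjusted p = 0.0699, or 0.0250 without control WT2). Like Spa17, Prkcz met the filter through the controls alone. The remaining lower genes by the naming rule had no overlap and did not pass. They were Prodh (proline dehydrogenase, -3.45), Rnh1 (a ribonuclease inhibitor, -1.39), Lmna (lamin A/C, -1.52), Capn2 (a calpain protease, -1.36), Atp6v1b2 (a subunit of the lysosomal proton pump, -0.99) and Txn1 (thioredoxin, -0.90), with adjusted p between 0.137 and 0.238. Prodh, at 0.63 TPM or less in treated libraries, also met the filter through the controls alone. The filter thus largely fixed the direction of Prkcz and Prodh.

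Microglia-type genes, which are known to depend on TGF-β in brain macrophages, had positive differences. Of 14 listed, 9 were tested, all 9 with a positive difference and a median of 2.85, beside 0.05 for all genes. Of all genes tested, 52.4% had a positive difference. Tmem119 and P2ry12, described below, reached TPM 1 in 1 chosen control each, so the filter partly fixed their sign. Cx3cr1, the fractalkine receptor, was at 0.36, 131, 31.1, 89.9 and 79.9 TPM in the chosen controls and at 157, 431 and 612 with TGF-β1. Its sets did not overlap, but the spread of the controls was wide (3.47 ± 0.84, limma adjusted p = 0.148). Tmem119, a surface marker of microglia, was at 0 to 2.28 TPM in chosen controls and 0, 99.6 and 334 with TGF-β1, so the lowest treated library was listed at 0 like most controls (4.65, adjusted p = 0.314).

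The purinergic receptor genes P2ry12 and P2ry13 and the genes Fcrls and Olfml3 had differences of 3.42, 2.85, 3.22 and 2.14, and Tgfbr1, the type I TGF-β receptor, of 0.66, with adjusted p from 0.314 to 0.788. P2ry12 had treated medians of 21.1 TPM and Fcrls of 323, against 0 and 22.4 in the chosen controls. Against the controls left out the median of the list was 2.66. It was 1.73 with a pseudocount of 10 and 1.36 over the KO libraries alone.

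Complement genes were split. C1qa, a chain of the initiating complex C1q, was at 0.65, 0.050, 58.7, 0 and 0.34 TPM in chosen controls and 6.14, 298 and 1339 with TGF-β1. Control WT5 overlapped the treated libraries (5.85 ± 1.25, limma adjusted p = 0.0932, or 0.0271 without control WT5 and 0.0368 without TGF-β1 WT4). C1qc was at 0.88, 80.7, 181, 50.8 and 253 TPM and then 286, 785 and 2048, with no overlap (4.03 ± 0.90, adjusted p = 0.114). Of 14 complement genes listed 8 were tested, 5 positive and 3 negative, with a median of 0.35.

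Targets of p53, the transcription factor of the DNA damage response, had mostly positive differences, although none passed. Of 20 listed, 18 were tested, 16 positive and 2 negative, with a median of 1.74, and 13 had an unadjusted p under 0.05. Over all genes tested, the share of positive differences was 52.4% and the share with an unadjusted p under 0.05 was 8.89%. Phlda3 and Bbc3, described below, reached TPM 1 in 1 chosen control each, so the filter partly fixed their sign. The mean over the tested members was 4.38 to 5.60 log2 units in treated and 2.56 to 3.96 in chosen control libraries. Cdkn1a, the cyclin-dependent kinase inhibitor p21, also a TGF-β target, was at 101, 307, 600.3, 167 and 245 TPM in chosen controls and 364, 1233 and 3422 with TGF-β1. Only control WT5 reached the treated range (2.42 ± 0.50, limma adjusted p = 0.0777, or 0.0425 without control WT5 and 0.0113 without TGF-β1 KO1). Its levels in treated libraries stood beside the high levels of mitotic genes given above.

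**Figure D4:**
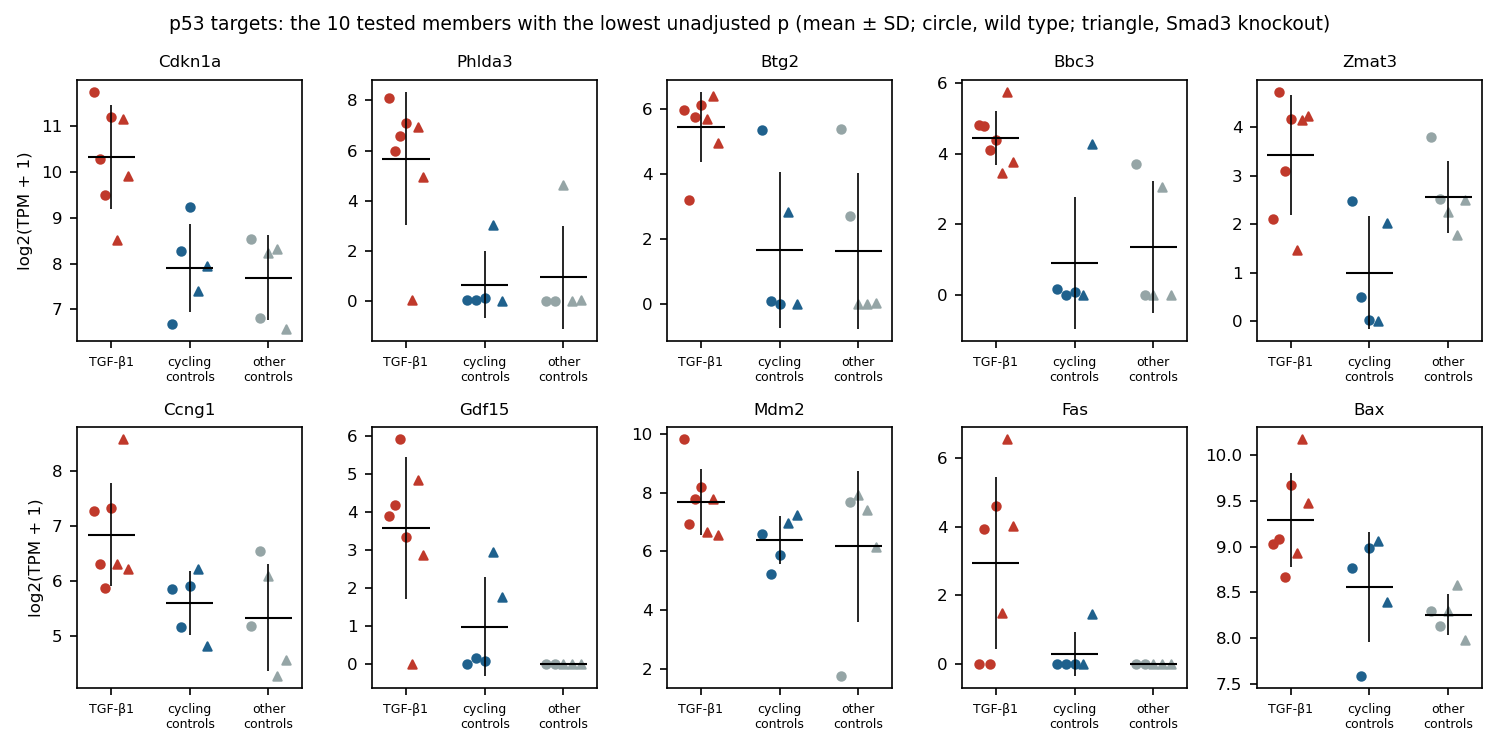
Level in log2(TPM + 1) of the 10 tested p53 targets with the lowest unadjusted p, chosen after their values were seen, with 1 point per library and bars for mean ± SD. Cdkn1a ran from 364 to 3422 TPM with TGF-β1 and from 101 to 600.3 in the chosen controls, and for Phlda3 the library TGF-β1 KO1 lies at 0.040 TPM, among the controls.

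Phlda3, an inhibitor of Akt signalling, was at 0.040, 0.040, 0.070, 7.17 and 0 TPM in chosen controls and at a median of 95.9 and a highest value of 274 with TGF-β1. TGF-β1 KO1 was at 0.040 and the other 6 treated libraries at 30.0 or more (5.03 ± 1.19, adjusted p = 0.137). Bbc3, the apoptosis gene PUMA, was at 0.13, 0, 0.060, 0 and 18.2 TPM and then 9.86, 20.1 and 52.8 (3.53, adjusted p = 0.213). Btg2, an antiproliferative gene, was at 39.5, 0.060, 0, 6.08 and 0 TPM and then 8.17, 52.7 and 83.0 (3.79, adjusted p = 0.200). Plk2 was the negative exception among members named here, at -2.20 (adjusted p = 0.560). The median of the list was 1.90 against the controls left out, 2.28 over the WT libraries alone and 0.66 over the KO libraries alone.

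Direct TGF-β feedback and target genes had differences in both directions. Of 24 listed, 21 were tested, 16 positive and 5 negative, with a median of 0.19 and a mean of 0.57, none passing. The median was 0.72 against the controls left out, 0.36 against all 10 and 0.50 with the cycle mean as a covariate. Pmepa1, a feedback inhibitor of Smad signalling, was at a median of 44.7 TPM in treated libraries and 0 in chosen controls, with 3.10 and 30.2 at the facing ends (3.05, limma adjusted p = 0.419). Hes1, a repressor downstream of Notch, was at 0.040 TPM or less in every chosen control and 0.030, 20.9 and 208 with TGF-β1 (3.80, adjusted p = 0.314). Hes1 met the filter through the treated libraries alone, so its direction was largely fixed by the filter.

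Markers of the myofibroblast state were largely unexpressed. Acta2, the gene of the smooth muscle actin isoform used for the sort, reached 22.5 TPM in TGF-β1 WT3, 8.12 in control KO1 and 0.12 or less in the other 10 libraries, too few for a test. Col1a1, the alpha 1 chain of collagen I, was listed at 0 in all 12. Of 20 contractile genes listed, 9 were tested and 7 were at 0 in all 12, and of 26 matrix genes 5 were tested and 13 were at 0. Tested contractile genes had 2 positive and 7 negative differences with a median of -0.50, Vim being the 1 that passed. That median was 0.02 against the controls left out. Among enzymes that modify collagen, Plod1, a lysyl hydroxylase, was at 13.3 to 46.4 TPM in controls and 44.4 to 153 with TGF-β1 (1.63, limma adjusted p = 0.225).

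**Figure D5:**
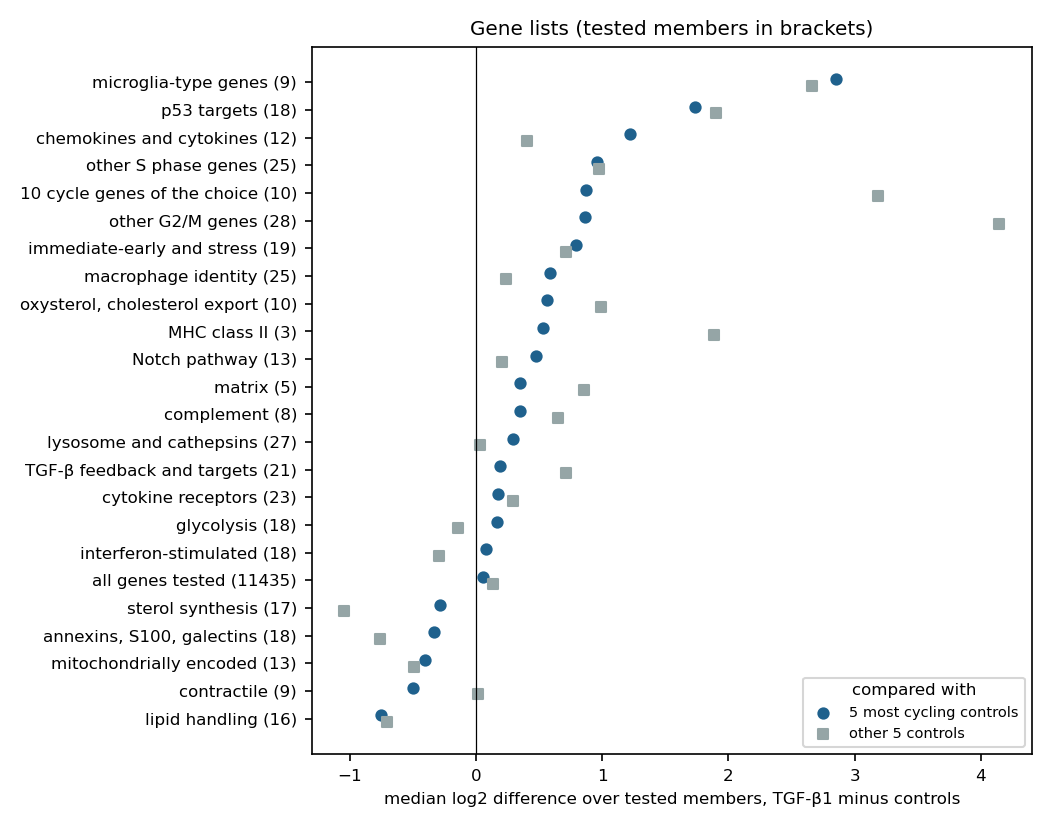
Median log2 difference over the tested members of each gene list, TGF-β1 minus controls, against the 5 most cycling controls (circles) and the other 5 (squares), with the number of members tested in brackets. Microglia-type genes and p53 targets lie highest among the lists named here, at 2.85 and 1.74 against the chosen controls, and both sets of controls share the treated libraries.

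Annexins, S100 proteins and galectins, calcium- or sugar-binding proteins abundant in macrophages, had negative differences for 13 of 18 tested members, with a median of -0.34 and none passing. S100a11 held 231 to 621 TPM in chosen controls and 78.1 to 277 with TGF-β1 (-1.54, limma adjusted p = 0.137). Lgals3, galectin-3, held 15986 to 28224 TPM and then 3139 to 21579, the last in TGF-β1 KO1 (-1.64, adjusted p = 0.137). Mitochondrially encoded genes had negative differences for 12 of 13, with a median of -0.40 and none passing. mt-Nd1 and mt-Atp6, subunits of respiratory complex I and of ATP synthase, differed by -0.48 and -0.45 (adjusted p = 0.357 and 0.421). The 13 genes together held 2.03% to 3.55% of the TPM of treated and 2.43% to 3.91% of chosen control libraries, ranges that overlap.

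Chemokine and cytokine genes were uneven, with 12 of 25 tested, 7 positive and 5 negative. Tnf, tumour necrosis factor, was at 0.070 to 33.7 TPM in chosen controls and 47.3, 85.3 and 307 with TGF-β1. The sets did not overlap, although the gene did not pass (2.87, limma adjusted p = 0.218). Cxcl16, a membrane-bound chemokine, held 14.9 to 399 TPM and then 218 to 2003 (2.13, adjusted p = 0.317), and Ccl4 0.080 to 95.1 and then 3.43 to 579 (2.75, adjusted p = 0.480). The median of the list was 1.22 against the chosen controls and 0.41 against the others.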

How the data were processed

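The study holds 17 RNA sequencing libraries. The tools named, per the submitters' processing notes, are FastQC, Trim Galore and RSEM, with the mouse build mm9. The deposited table holds TPM, which the authors scaled by gene length and library total, so the depth of a library is not known. All columns of values were used (0 left out). Symbols for 32897 of 37620 gene IDs came from the GENCODE vM21 annotation.

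From the deposited TPM, log2(TPM + 1) was computed, which understates the change of low genes. A gene entered the test if 3 or more of the 12 libraries had it at TPM 1 or above. A gene near 0 in 1 set could enter through the other set alone, and its direction was then largely fixed by the filter. The test was limma 3.58.1 in R 4.3.3 (lmFit, eBayes with a trend) without covariates, and p-values were adjusted by Benjamini-Hochberg over all genes tested, with 0.05 as the threshold. All adjusted p-values in the text come from this limma test. The p-values take the 5 controls as given and do not cover the choice. The 63 genes of the cell cycle lists stayed in the fit and in the adjustment over all genes, but no test of theirs is read as a result. A difference of the treatment effect between genotypes was fitted as an interaction in the same libraries.

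Named genes were a fixed set, plus up to 12 genes in each direction that passed, had a mean TPM of at least 10 in 1 set and no overlap, filled up by lowest unadjusted p, plus the leading members of lists. The libraries, genes and lists were chosen with earlier results of these data known. Lists are given by counts and medians. Other pseudocounts, filters, scalings, covariates, sets of controls and omissions of 1 library were tried. Equal replicate numbers showed no detectable pairing of libraries: over 7 pairs the correlation of deviations from group means ran from -0.01 to 0.02. A weak pairing could go unseen in such correlations. The test was checked on simulated data. Promoters are from RefSeq (GRCm38.p6). Of the 14 called genes, 1 is not reported here.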

Additional observations from a re-analysis of the deposited data

Results flagged for a closer look

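Among the genes named, 124 sets of 5 or 7 libraries were checked for a library far from the rest of its set, and 16 were found, 6 in treated and 10 in chosen control libraries. Chance alone singles out about 1 in 20 sets in such a check if values are spread normally. That rate was not checked for sets mostly at or near 0 TPM, such as those of Acta2.

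High single control libraries came first. Ube2e3, a ubiquitin-conjugating enzyme, was at 30.2 TPM in control KO3 with the next control at 0.86, and Bbc3 (PUMA) at 18.2 in the same library with the next at 0.13. Control KO1 was the high one for Acta2 (8.12, next 0.090), Phlda3 (7.17, next 0.070) and P2ry12 (8.47, next 0.030). C1qa was at 58.7 in control WT5 (next 0.65) and Tmem119 at 2.28 in control WT2 (next 0.20). Low single controls were WT4 for Prodh (0.73, next 16.2) and Tnf (0.070, next 11.7) and WT2 for Cxcl16 (14.9, next 179).

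Of the treated libraries, TGF-β1 KO1 was the low one for Rasal3 (41.8, next 102), Phlda3 (0.040, next 30.0) and Ccl4 (3.43, next 86.0). Capn2 was at 26.1 in TGF-β1 WT2 (next 60.5), and Nsdhl, a sterol synthesis enzyme, at 0.050 in TGF-β1 KO2 (next 12.7). Acta2 was at 22.5 in TGF-β1 WT3 with the next treated library at 0.12.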

How the results depend on the processing

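Against 14 calls as reported, the count was 8 with a pseudocount of 0.1, 24 after quantile normalization and 2 with no filter on low values (Ch25h and Rapsn). It was 50 against all 10 controls, 161 against the other 5 and 2 with the cycle mean as covariate. The KO libraries alone gave 2 (Ch25h and C1qa) and the WT libraries alone 11, with 5 of the 14 among them. Ctsd (limma adjusted p = 0.00216), Lpl (0.0108), Plin2 (0.0272) and Phlda3 (0.0296) passed in the WT libraries alone. Without the 2 libraries with fewest genes, an alternative chosen after seeing the data, the count was 4. Leaving out 1 library gave 5 to 28, and 0 to 5 for the difference between genotypes. The 5 came without control KO1, when 1 KO control was left, assumed to vary like the other groups, and include cell cycle genes, so they are not read as calls. The replicate numbers showed no detectable pairing of samples, and no treated library correlated best with the control of its own number. With a replicate block in the 12 libraries 1 gene passed, Ch25h (limma adjusted p = 0.0125), and with one over all 17 libraries 14 passed, 4 of them among the 14 reported.

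The difference of Smad3 turned to 0.45 and 0.21 with these blocks, 0.10 against all 10 controls and 1.69 in the KO libraries alone. In the KO libraries alone that of Ctsd was -0.039, of P2ry13 -0.10 and of Fdps -0.048. Against the other 5 controls Fdps was at -0.73 and Nsdhl at -1.04. The cause of these changes was not tested. All 14 called genes kept their direction in every fit that tested them.

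Depth is unknown, so no limit of detection can be given. Differences of low genes shrink with a larger pseudocount. Treated libraries still cycled more than the chosen controls, and no label ties culture days, sort or number of cells to a library, so their part was not tested.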

Other observations

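Genes of sterol synthesis differed with the set of controls. Of 17 matched, all were tested, 8 positive and 9 negative, with a median of -0.28 and a mean of 0.05, of opposite sign, and the median was -1.04 against the controls left out. Fdps, farnesyl diphosphate synthase, differed by 0.85 (limma adjusted p = 0.576) and Nsdhl, a sterol dehydrogenase, by 2.69 (0.491) against the chosen controls. Genes of oxysterol response and cholesterol export, 10 of 12 tested, had 6 positive and 4 negative differences and a median of 0.56, with Ch25h the 1 that passed.

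General macrophage genes, 25 of 25 tested, had 19 positive and 6 negative differences and a median of 0.59, none passing, and cytokine receptors, 23 of 23 tested, a median of 0.17 with Il21r passing. Immediate-early and stress genes had 12 positive and 7 negative of 19 tested and a median of 0.79. Ier3, an early response gene, was at 0.040 to 41.0 TPM in chosen controls and 14.1 to 176 with TGF-β1 (3.76, adjusted p = 0.185), and Egr1 at 0.020 or less and then 0 to 56.9 (3.34, adjusted p = 0.231). Egr1 met the filter through the treated libraries alone, so its direction was largely fixed by the filter. Medians were 0.08 for 18 interferon-stimulated genes, 0.17 for 18 glycolysis genes, 0.47 for 13 Notch pathway genes and 0.53 for 3 MHC class II genes, none with a gene that passed.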
